A study of Homo sapiens with 4 samples.

Results

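Depletion of hnRNPM was examined in LM2 (4175), a derivative of the MDA-MB-231 line of triple-negative human breast cancer that the labels assign to lung metastasis. The comparison used 2 of the 4 libraries in the series: LM2 cells carrying a non-specific shRNA, and LM2 cells carrying an shRNA against hnRNPM. Both shRNAs were expressed stably from lentiviral vectors, and both cultures were grown in DMEM with serum, L-glutamine, penicillin and streptomycin. Polyadenylated RNA was sequenced as stranded, paired-end libraries. The series title places the knockdown in a study of alternative splicing during the epithelial-mesenchymal transition (EMT), but the values analysed here are gene levels, so splicing was not analysed here. No source used here gives the shRNA sequence, the number of shRNAs or whether the cells were clones or pools.

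Levels are in FPKM, fragments per kilobase of gene model, scaled for library size. Of 20329 genes listed once in the table, 13788 had a mean of at least 1 FPKM over the 2 LM2 libraries and were compared, and 6541 lay below that level. The difference is knockdown minus control on the log2(FPKM + 1) scale, which understates the change of low genes. With 1 library a side no p-value or error can be given, and no difference has a replicate check. A gene is called higher or lower when this difference reaches 1 in size, which is 2-fold on that scale. The minimum fell between SEPSECS-AS1 (1.15 FPKM in the control and 0.854 in the knockdown library) just inside and NRL (1.57 and 0.426 FPKM) just outside.

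hnRNPM is a heterogeneous nuclear ribonucleoprotein. Proteins of this family coat nascent transcripts and bind short sequence elements, where they influence the choice of splice sites, RNA stability and export. hnRNPM in particular has been linked to exon choices that accompany the change of breast cancer cells from an epithelial to a mesenchymal state.

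Read from steps in the lowest values, depth came to about 41474700 fragments for the control and 27242200 for the knockdown library. FPKM sums were 434567 and 436464. Genes of the mitochondrial genome took 8.80% of the control sum and 11.8% of the knockdown sum. The second pair of libraries, from the bone metastasis derivative BM1 (1833) treated in the same way, shares no library with the LM2 pair and is given beside it where it was compared.

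The targeted gene checked the labels. HNRNPM (ENSG00000099783.11; GRCh37 chromosome 19, 8509651 to 8553998, plus strand) was at 132 FPKM in the control and 20.3 FPKM in the knockdown library. The level left was 15.4% of control, a difference of -2.64. HNRNPM had the eighth largest fall among protein-coding genes. It overlaps ELAVL1 (27.2 and 26.0 FPKM) and RP11-886P16.10 (7.39 and 0.552 FPKM) on the opposite strand, and no source used here tells if fragments were assigned by strand.

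The receptor and cell type markers were read next. ERBB2, the HER2 receptor gene, was at 21.3 and 13.5 FPKM in control and knockdown. ESR1 and PGR, the other defining receptor genes, were not analysed here. Of 7 endothelial markers, 3 were measured and none reached the minimum, with summed levels of 0.685 and 0.541 FPKM. Of 12 leukocyte markers, 4 were measured, summing to 12.4 and 10.1 FPKM. These were CD68, called lower (9.50 and 2.04 FPKM), CD14, called higher (1.97 and 7.09 FPKM), and CD8A and CSF1R, both under 1 FPKM. Lung epithelium was represented by AGER (1.72 and 1.19 FPKM) and NAPSA (0.453 and 0.233 FPKM) of 8 markers. Of 9 luminal breast markers, 2 were compared, GATA3 (3.33 and 2.96 FPKM) and XBP1 (41.8 and 33.9 FPKM), and neither was called. Of 7 osteoblast and osteoclast markers, only RUNX2 was compared (7.18 and 4.76 FPKM), and it was not called. The part of these levels in the other differences was not tested. Both libraries are bulk samples of a cultured line, so fewer cells expressing a gene and less RNA per cell cannot be told apart.

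Over the 13788 genes, 531 were called higher in the knockdown library (3.85%) and 591 lower (4.29%), which is 8.14% in either direction. The median difference was -0.04, with quartiles of -0.36 and 0.27, and 75.4% of genes lay within 1.5-fold. At least 4-fold, 62 genes were higher and 56 lower. The difference was negative in 7368 genes and positive in 6420. Calls in the gene lists below stand beside 3.85% higher and 4.29% lower over all genes, and negative members beside 7368 of 13788. Scaling both libraries by median ratio size factors turned the balance to 573 higher and 523 lower, so which direction held more genes is not settled by these data. The plot of LM2 control against LM2 knockdown levels shows where the leading genes lie.

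**Figure D1:**
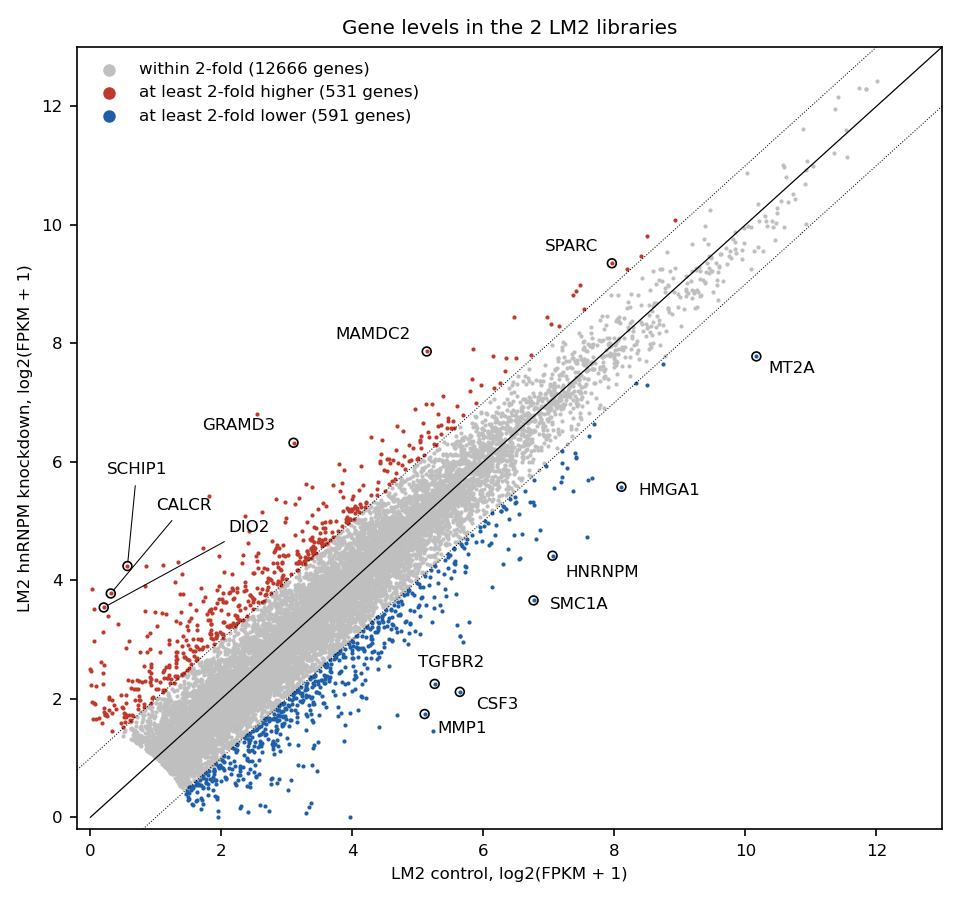
Levels of the 13788 genes in the LM2 control (x axis) and LM2 hnRNPM knockdown library (y axis), both as log2(FPKM + 1), 1 point per gene. The solid line marks equal levels and the dotted lines a 2-fold difference. The 531 red genes lie on or above the upper dotted line and the 591 blue genes on or below the lower one, with HNRNPM at 132 FPKM in the control and 20.3 FPKM in the knockdown.

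Large differences were spread over gene classes. Protein-coding genes gave 446 higher and 459 lower calls among 11255, close to the shares over all genes. Long intergenic noncoding RNA genes gave 9 higher and 21 lower of 290, and genes typed as processed transcripts 4 and 11 of 120. Antisense genes gave 37 higher and 50 lower of 955. Processed pseudogenes, at 8 and 6 of 426, held fewer calls of either direction. Small nucleolar RNA genes gave 5 higher and 2 lower of 44, microRNA genes 0 and 4 of 29, and mitochondrial transfer RNA genes 0 and 5 of 22. Genes this short are poorly captured by libraries of polyadenylated RNA.

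By level, the share called higher ran from 2.91% at 1 to 2 FPKM to 4.39% at 5 to 20 FPKM. The share called lower was highest at 2 to 5 FPKM (5.62%) and lowest at 100 FPKM or more (2.58%). GC content of the transcript moved with the difference. In the fifth of protein-coding genes with the lowest GC, 79 were called higher and 41 lower with a median of 0.11, and in the fifth with the highest GC, 75 were higher and 122 lower with a median of -0.16. Across 11255 genes, Spearman's correlation between the difference and GC content was -0.19 in LM2 and -0.46 in BM1. Transcript length showed no such trend (-0.01 in LM2). With the trend with GC removed, HNRNPM had a difference of -2.55, the 30 leading genes named below kept their direction, and each list median given below, unless an exception is named, kept its sign.

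On the log2(FPKM + 1) scale, the 15 protein-coding genes with the largest increases were led by SCHIP1, a schwannomin-interacting scaffold protein (0.480 FPKM in the control, 17.9 in the knockdown, difference 3.67). SCHIP1 lies within IQCJ-SCHIP1 on the same strand, which went from 19.8 to 42.5 FPKM, so how fragments were divided between these entries is uncertain. CALCR, the calcitonin receptor (GRCh37 chromosome 7, 93053799 to 93204042, minus strand), was at 0.241 FPKM in the control and 12.7 FPKM in the knockdown (3.47). DIO2, the type 2 iodothyronine deiodinase that turns thyroxine into the active hormone (chromosome 14, 80663870 to 80854100, minus strand), was at 0.152 and 10.6 FPKM (3.34). Both were nearly silent in the control library. With a pseudocount of 0.1 the differences of DIO2 (5.42) and CALCR (5.23) exceeded that of SCHIP1 (4.96), so the order of such low genes depends on the scale.

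TP53INP2, a regulator of autophagy, was at 0.806 and 17.8 FPKM. GRAMD3, which encodes a GRAM domain protein, was at 7.58 and 78.9 FPKM, and the chloride intracellular channel gene CLIC3 was at 1.16 and 18.2 FPKM. MYC, the growth-promoting transcription factor, was at 1.53 FPKM in the control and 18.8 FPKM in the knockdown (2.97). These genes were at least 10-fold apart in FPKM.

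MAMDC2, a secreted MAM domain protein, was the most abundant of the 15, at 34.1 and 231 FPKM. Its neighbours on the opposite strand were higher as well: MAMDC2-AS1 went from 1.59 to 8.65 FPKM and SMC5-AS1 from 2.21 to 13.6 FPKM. PLEKHA7, a component of adherens junctions, was at 1.46 and 14.6 FPKM, and SAA2, an acute phase serum amyloid, at 6.11 and 40.2 FPKM. PLEKHA7 overlaps RP11-466H18.1 on the same strand, an entry at 117 and 103 FPKM. The remaining 5 genes were PLEKHS1, SYT12, TUBB2B, CPA4 and ZNF548, with differences from 2.72 to 3.13. SYT12 is a synaptotagmin, TUBB2B a beta-tubulin, CPA4 a carboxypeptidase and ZNF548 a zinc finger protein.

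Of the 15 largest decreases, CSF3, the granulocyte colony-stimulating factor, was first on this scale (48.8 FPKM in the control, 3.33 in the knockdown, -3.52). MMP1, interstitial collagenase, was at 33.3 and 2.34 FPKM (-3.36). SMC1A, a core subunit of the cohesin ring, was at 108 FPKM in the control and 11.6 FPKM in the knockdown (-3.11). These levels left in the knockdown library were 6.83%, 7.03% and 10.8% of control.

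ANP32E, a chaperone of the histone variant H2A.Z, was at 50.6 and 6.76 FPKM (-2.73). HMGA1, an architectural chromatin protein, was at 275 and 46.8 FPKM (-2.53). SLCO4A1, an organic anion transporter, was at 48.9 and 7.33 FPKM (-2.58), and its opposite-strand neighbour SLCO4A1-AS1 was at 67.2 and 23.1 FPKM. IL11, a cytokine of the interleukin-6 family, was at 54.1 and 8.76 FPKM (-2.50). PMEPA1, an inhibitor of TGF-beta signalling, was at 13.7 and 1.44 FPKM (-2.59). PMEPA1 overlaps an entry on the opposite strand, and so do SMC1A and SLCO4A1.

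Among the 15 increases, SCHIP1, GRAMD3, MAMDC2, ZNF548, PLEKHA7 and SAA2 overlap another entry on the same strand. Such entries also hold 4 of the 15 decreases. PTGES3L-AARSD1, a readthrough entry, was at 9.10 and 0.127 FPKM, a larger ratio than that of CSF3, while AARSD1 on the same strand had a difference of 0.72. PRICKLE4 was at 24.7 and 2.31 FPKM while TOMM6, a subunit of the mitochondrial import pore on the same strand, was at 80.1 and 214 FPKM. SH3BP1, a GTPase-activating protein, was at 8.46 and 0.830 FPKM while PDXP on the same strand was at 1.24 and 9.76 FPKM. In these 3 pairs the partner had the opposite sign, so the division of fragments between entries cannot be told apart from a change of the gene. HNRNPH2, itself an hnRNP gene, was at 49.1 and 7.35 FPKM, and its partner RPL36A-HNRNPH2 was at 3.95 and 2.49 FPKM. Over all genes, 20.3% of those called higher and 18.3% of those called lower overlapped another entry on the same strand, against 17.4% of all compared.

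**Figure D2:**
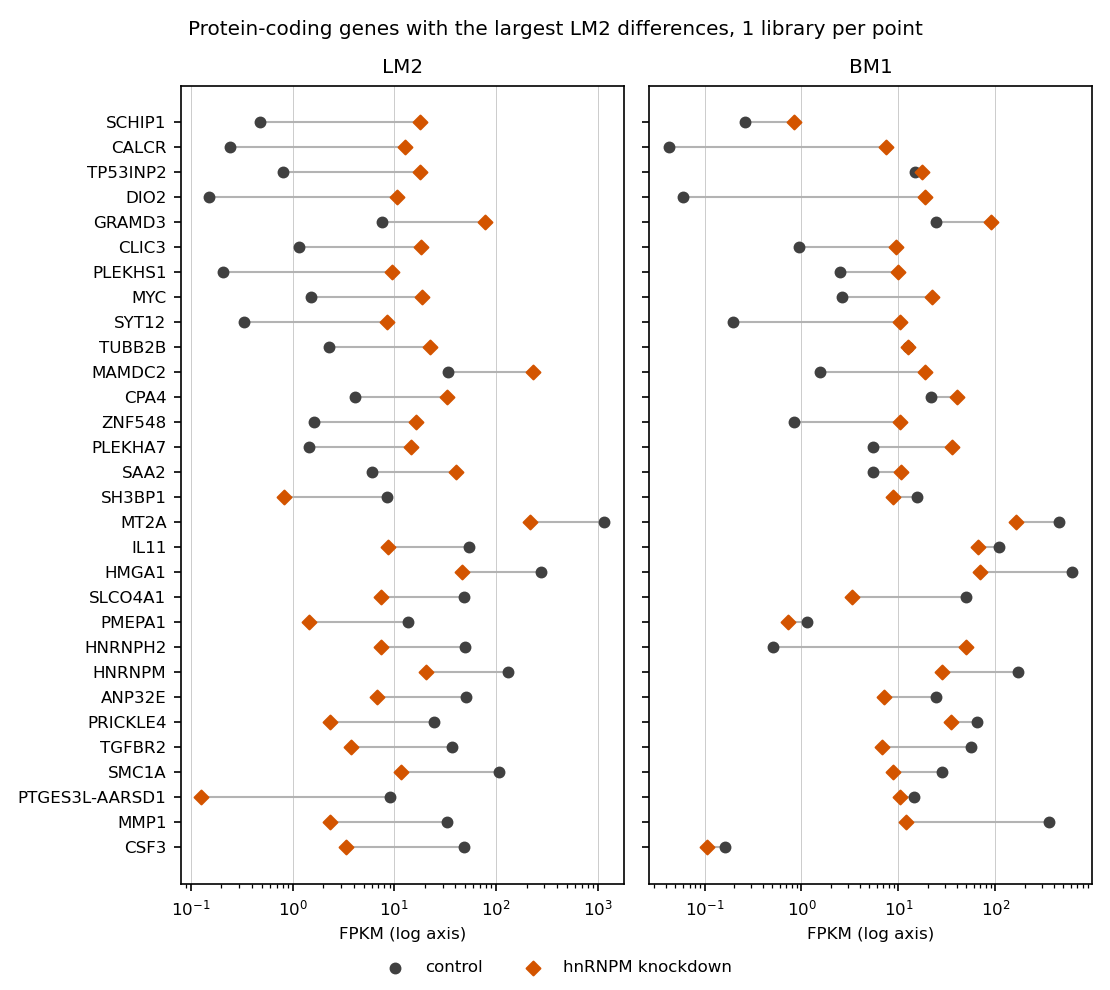
FPKM on a log axis of the 15 protein-coding genes with the largest increase (upper rows) and the 15 with the largest decrease (lower rows) in LM2, in LM2 (left) and BM1 (right). Each circle is the control library and each diamond the hnRNPM knockdown library, with no error bars because each point is 1 library. CALCR and DIO2 move from under 1 FPKM to more than 7 FPKM in both lines, and HNRNPH2 is lower in LM2 and higher in BM1.

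Promoters of leading genes were read for a motif of AP-1, the dimer of Fos and Jun proteins, whose members are described further on. The motif searched was TGANTCA on both strands, with no overlap counted against other motifs, in windows of 300 bases (250 before and 50 after the start) from RefSeq on GRCh38.p14. Promoters were matched by gene ID and chromosome. Among 9710 matched to compared genes, 4.50% held the motif, against 11.4% of 368 promoters of genes called higher, 6.32% of 380 of genes called lower and 7.76% of all 27305 in the table. Of the 30 leading genes, 19 had a promoter read here and 4 of these held the motif: DIO2 and CPA4, called higher, and IL11 and MT2A, called lower. The first 3 are shown with the match in capitals, because the same letters occur in windows of genes called in opposite directions. A match is a description of the letters and not a binding site.
DIO2, chr14:80211455-80211754, minus strand: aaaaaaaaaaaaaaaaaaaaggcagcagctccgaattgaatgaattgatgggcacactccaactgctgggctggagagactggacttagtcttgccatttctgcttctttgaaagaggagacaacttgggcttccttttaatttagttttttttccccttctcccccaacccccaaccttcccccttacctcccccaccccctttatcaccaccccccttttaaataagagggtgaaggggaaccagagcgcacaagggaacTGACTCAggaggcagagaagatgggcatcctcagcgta
CPA4, chr7:130292911-130293210, plus strand: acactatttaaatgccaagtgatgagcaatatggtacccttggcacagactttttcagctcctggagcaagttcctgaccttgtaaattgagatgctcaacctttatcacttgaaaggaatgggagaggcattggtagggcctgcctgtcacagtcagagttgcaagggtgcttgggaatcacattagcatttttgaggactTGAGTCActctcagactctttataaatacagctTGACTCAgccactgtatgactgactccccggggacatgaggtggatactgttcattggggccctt
IL11, chr19:55370414-55370713, minus strand: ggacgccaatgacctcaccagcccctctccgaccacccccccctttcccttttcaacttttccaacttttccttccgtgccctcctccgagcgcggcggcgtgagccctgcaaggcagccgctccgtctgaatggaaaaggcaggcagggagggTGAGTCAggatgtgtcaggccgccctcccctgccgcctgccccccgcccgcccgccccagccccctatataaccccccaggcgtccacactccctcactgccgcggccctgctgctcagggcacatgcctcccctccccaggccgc

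The match in DIO2 begins 12 bases after the start, those in CPA4 48 and 15 bases before it, and that in IL11 96 bases before it. MT2A, printed with the metallothioneins, has its match 104 bases before the start, left in lower case there. The TATA box core TATAAA was in 5.22% of compared promoters, 10.1% of those called higher and 7.11% of those called lower. The cAMP response element TGACGTCA was in 3.44%, 3.26% and 1.84%. The median GC content of these promoters was 65.3% over compared genes, 64.0% over genes called higher and 66.7% over genes called lower.

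CALCR and DIO2 belong to hormone systems whose other members were read from lists. Calcitonin receptors pair with receptor activity-modifying proteins to form receptors for amylin and related peptides. Of 5 genes of the calcitonin and adrenomedullin system that were compared, CALCR was the only one called. RAMP1, its partner protein, was at 8.77 and 4.51 FPKM (-0.83). The peptide genes ADM2 (1.90 and 0.840 FPKM) and ADM (57.3 and 40.1 FPKM) had differences of -0.66 and -0.51, and CRCP, a receptor component, had -0.05. CALCRL, the related receptor, was under 0.1 FPKM in both libraries. The receptor gene was thus higher while the compared partners and ligands had differences at or below -0.05.

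Among 13 thyroid hormone genes, DIO2 was called higher and the transporter SLCO4A1 lower. THRB, the beta thyroid hormone receptor, was at 1.73 and 0.467 FPKM (-0.90), and THRA, the alpha receptor, at 6.54 and 5.04 FPKM (-0.32). The hormone-responsive genes KLF9 (1.53 and 1.15 FPKM) and HR (2.11 and 2.32 FPKM) had differences of -0.23 and 0.09. Neither receptor nor either target was called.

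The remaining hnRNP family was nearly uniform. Of 29 members, 28 had a negative difference, against 7368 of 13788 over all genes. The median was -0.29, and HNRNPH2 was the only call. HNRNPA1, a splicing repressor, was at 367 and 238 FPKM (-0.62). RBMX was at 63.3 and 41.5 FPKM (-0.60), and SYNCRIP at 47.9 and 32.6 FPKM (-0.54). MYEF2, the close relative of HNRNPM, had a difference of -0.29, the family's median. Only HNRNPAB had a positive value (189 and 200 FPKM, 0.08). HNRNPH2 had a difference of -2.59, close to that of HNRNPM, and the others lay between -0.62 and 0.08.

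SR proteins, which often oppose hnRNPs at exons, had 0 higher and 1 lower of 22, with a median of -0.13. The 1 called was SRSF8 (8.69 and 3.43 FPKM, -1.13), which overlaps a second entry of the same name. Among 13 regulators linked to EMT splicing, MBNL2, a muscleblind-like protein, was called higher (7.12 and 20.5 FPKM, 1.40). MBNL3 (2.78 and 0.482 FPKM, -1.35) and KHDRBS3, a STAR family RNA-binding protein (-1.31), were called lower. RBFOX2 was at 35.4 and 20.2 FPKM (-0.78), and QKI at 13.8 and 10.4 FPKM (-0.38). The median of these 13, -0.07, turned to 0.01 when the trend with GC was removed, so the list has no direction.

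The TGF-beta and BMP pathway passes signals from secreted ligands through paired serine/threonine kinase receptors to SMAD proteins in the nucleus. Of 44 members compared, 10 were called higher and 2 lower, with a median of 0.25 against -0.04 over all genes. Ligands gave 3 higher and 0 lower of 9. BMP4 was at 18.4 and 84.1 FPKM (2.13), INHBA, which encodes an activin subunit, at 0.870 and 4.14 FPKM (1.46), and TGFB2 at 13.5 and 34.8 FPKM (1.31). INHBA was below 1 FPKM in the control and reached the minimum only through the knockdown library, so it could only be called higher. The calls among ligands were all in one direction, while TGFB1 (-0.43) and GDF15 (-0.24) had negative values.

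Receptors gave 0 higher and 2 lower of 10. TGFBR2, the receptor that binds TGF-beta first, went from 37.2 to 3.76 FPKM (-3.01), and ACVR1, a type I receptor for BMPs and activins, from 6.42 to 2.25 FPKM (-1.19). TGFBR1, the type I partner of TGFBR2, had a difference of -0.74, whereas the co-receptor TGFBR3 was at 6.37 and 13.7 FPKM (0.99). The 5 SMAD transducers had no call.

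Inhibitors and modulators gave 4 higher and 0 lower of 13. Follistatin (FST), which traps activins, was at 26.4 and 91.1 FPKM (1.75). SMAD6, an inhibitory SMAD, was at 1.76 and 6.96 FPKM (1.53), SKIL, a SMAD co-repressor, at 4.39 and 12.5 FPKM (1.32), and the decoy receptor BAMBI at 6.88 and 15.2 FPKM (1.04). Among 7 targets, 3 were called higher: ATOH8 (1.02 and 8.38 FPKM, 2.21), ID3 (2.17) and ID2 (0.592 and 3.47 FPKM, 1.49). ID2, like INHBA, reached the minimum only through the knockdown library. ID1 was at 35.0 and 64.8 FPKM (0.87), below the rule. SMAD6 and the ID genes are known targets of BMP signalling. PMEPA1, known as a target of TGF-beta, was among the largest decreases.

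**Figure D3:**
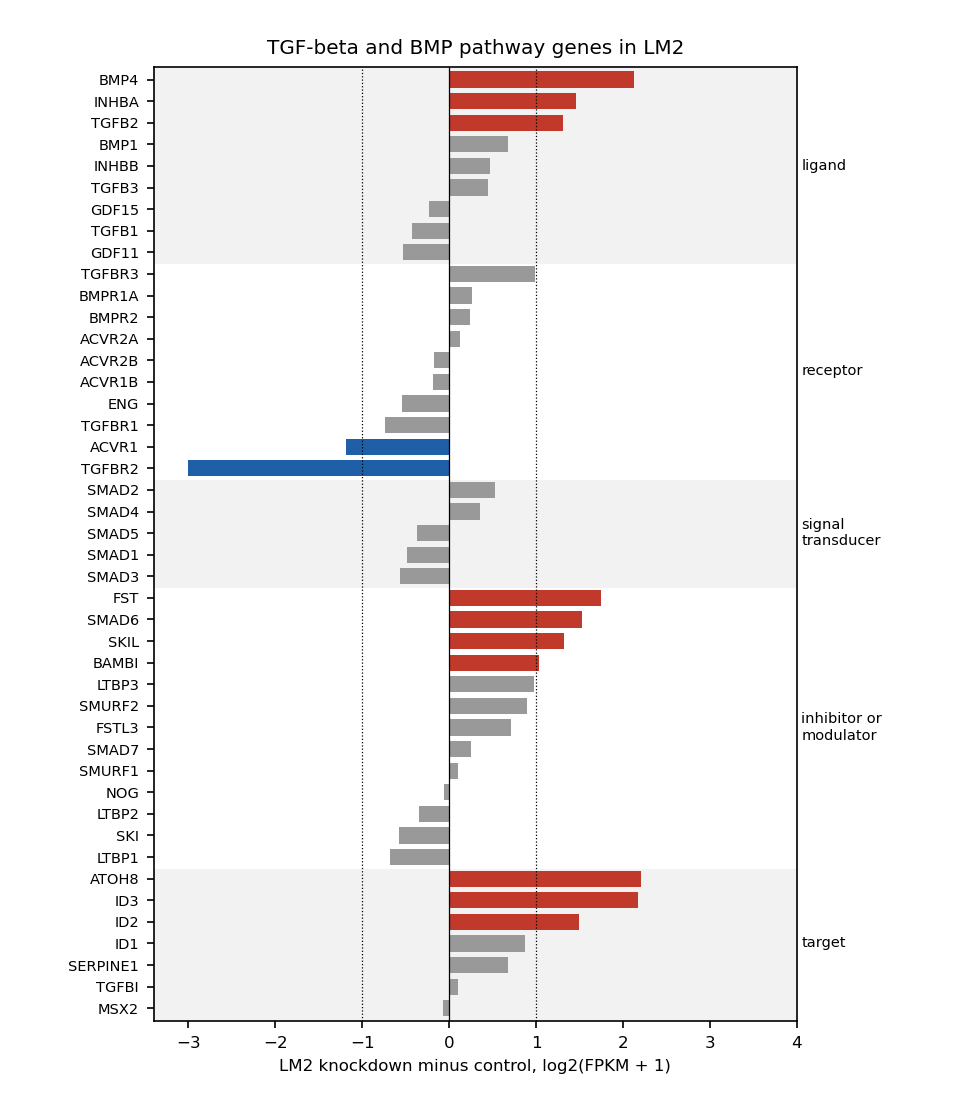
Differences on the log2(FPKM + 1) scale, LM2 knockdown minus control, of the 44 TGF-beta and BMP pathway genes compared, ordered by role. Each bar is 1 gene in 1 pair of libraries, so there is no error bar, and the dotted lines mark a 2-fold difference. Red bars are the 10 genes called higher, and blue bars are TGFBR2 (-3.01) and ACVR1 (-1.19).

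Epithelial genes were the list with the highest median, 0.77, with 10 of 22 called higher and 0 lower. Cytoskeletal keratins made up 5 of these calls. KRT80 was at 33.8 and 125 FPKM (1.85), KRT17 at 3.06 and 12.8 FPKM (1.77), KRT7 at 142 and 313 FPKM (1.14) and KRT18 at 129 and 319 FPKM (1.30), with KRT8 the fifth. KRT18 and KRT7 overlap other entries on both strands. Junction genes also called were CDH1 (0.170 and 2.30 FPKM, 1.49), JUP (plakoglobin, 4.58 and 11.9 FPKM, 1.21) and CLDN1 (0.430 and 2.22 FPKM, 1.17). The epithelial transcription factor ELF3 (0.401 and 2.64 FPKM) and the mucin MUC1 (0.893 and 2.79 FPKM) completed the 10. CDH1, CLDN1, ELF3 and MUC1 were below 1 FPKM in the control and reached the minimum only through the knockdown library. KRT81 was the exception in size, at 81.8 and 47.0 FPKM (-0.79).

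Mesenchymal genes did not mirror this. Of 14, 1 was called higher (CDH2, N-cadherin) and 0 lower, with a median of 0.15. CDH2 was below 1 FPKM in the control and reached the minimum only through the knockdown library, so it could only be called higher. The EMT transcription factors had small differences of mixed sign: SNAI2 was at 16.8 and 9.07 FPKM (-0.83), ZEB1 at 7.48 and 11.9 FPKM (0.60), ZEB2 at 4.14 and 5.29 FPKM (0.29) and SNAI1 at 0.940 and 1.61 FPKM (0.43). Fibronectin (FN1) was at 201 and 250 FPKM (0.32), and the receptor kinase AXL at 311 and 295 FPKM (-0.07). The mesenchymal median was -0.04 with a minimum of 5 FPKM, so it has no settled direction.

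SPARC, a secreted glycoprotein that binds collagen and belongs to a published lung metastasis signature of these cells, was at 248 FPKM in the control and 651 FPKM in the knockdown library (GRCh37 chromosome 5, 151040657 to 151066726, minus strand, 1.39). It stands among 7 of 27 matricellular and matrix glycoprotein genes called higher, against 3 lower, with a median of 0.32. Thrombospondin 1 (THBS1) was at 170 and 472 FPKM (1.47), the lysyl oxidase LOXL4 at 3.47 and 16.2 FPKM (1.94) and the collagen-modifying enzyme PLOD2 at 37.8 and 84.4 FPKM (1.14). Enzymes of the same kind went the other way: LOXL1 (2.65 and 0.594 FPKM), LOXL3 (2.19 and 0.451 FPKM) and the collagen chaperone FKBP10 (29.6 and 12.5 FPKM) were called lower.

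Among 16 collagens, 3 were called higher and 1 lower, with a median of 0.19. COL1A1, a fibrillar collagen, was at 29.2 and 74.2 FPKM (1.32), and COL5A1 at 22.2 and 56.2 FPKM (1.30). COL4A5, of basement membranes, was at 4.39 and 10.9 FPKM (1.14), while COL6A3, of microfibrils, was at 8.83 and 1.78 FPKM (-1.82). Laminins, the other basement membrane proteins, gave 0 higher and 2 lower of 9, among them LAMA3 (5.95 and 2.33 FPKM, -1.06). Of 12 integrins, only ITGA2, a collagen receptor subunit, was called (11.5 and 3.90 FPKM, -1.35).

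Matrix proteases split. MMP14, a membrane-anchored collagenase, was at 92.7 and 19.5 FPKM (-2.19) and was called lower with MMP1, while the gelatinase MMP2 (4.07 and 13.1 FPKM, 1.47) and ADAMTS15 (5.36 and 12.5 FPKM, 1.08) were called higher. Inhibitors of the TIMP group and RECK gave no calls among 5.

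Genes linked to lung metastasis in published work, which came in part from LM2 itself and so are not independent evidence of a direction, gave 5 higher and 4 lower of 24. NEDD9, an adaptor of focal adhesions, was at 1.30 and 6.57 FPKM (1.72), and EREG, an EGF receptor ligand, at 15.8 and 35.3 FPKM (1.11). SPARC, ID3 and MMP2 were the other calls upward, and MMP1, KYNU, ALDH3A1 and CXCL1 the calls downward. IL13RA2 was at 18.3 and 10.3 FPKM (-0.77). The list did not move in one direction.

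Inflammatory genes gave 3 higher and 4 lower of 20. Beside CSF3 and IL11, IL1B (interleukin 1 beta) was at 26.5 and 6.93 FPKM (-1.79) and the chemokine CXCL1 at 9.55 and 3.83 FPKM (-1.13). The adhesion molecule ICAM1 was at 6.14 and 22.5 FPKM (1.72), CSF1 at 17.5 and 38.4 FPKM (1.09) and CCL26 at 1.51 and 4.10 FPKM (1.02). Among 35 interferon-stimulated genes, 5 were called higher and 0 lower, with a median of 0.31. After IFIT1 these were IFIT2 (7.92 and 21.5 FPKM), SAMD9L (1.87 and 6.18 FPKM), OASL (3.89 and 10.3 FPKM) and SAMD9 (3.24 and 8.41 FPKM), all genes of the antiviral response. IFIT1 and IFIT2 overlap another gene on the opposite strand. MHC class I genes had no call among 17.

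Of 48 DNA replication genes, 47 had a negative difference, against 7368 of 13788 over all genes. Their median was -0.63 against -0.04 over all genes, and 6 were called lower against 0 higher. GINS4 and MCM5, subunits of the replicative helicase, had differences of -1.35 and -1.32. RRM2, POLE2 and TK1 were also called. GINS4 and POLE2 overlap genes on the opposite strand. Mitosis genes, by contrast in size, had a median of -0.19 with 37 of 49 negative and 1 called, SPC25 (-1.27). Histone cluster genes gave 6 higher and 0 lower of 16, with a median of 0.72, but 28 of the 44 in the table lay below the minimum. Without the minimum their median was 0.09.

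Metallothioneins, small cysteine-rich proteins that bind zinc and copper, had the lowest median of the lists, -1.52, with 4 of 5 called lower. MT2A was the most abundant, at 1148 FPKM in the control and 218 FPKM in the knockdown (-2.39). MT1X was at 77.5 and 18.5 FPKM (-2.01), MT1E at 134 and 46.0 FPKM (-1.52) and MT1A at 2.72 and 0.542 FPKM (-1.27). MT1F was at 5.30 and 3.38 FPKM (-0.53). All 5 had negative differences. MT1A overlaps MT1X and MT1F on the same strand, and these paralogs are alike in sequence, so the division of fragments among them is uncertain. The RefSeq promoters of MT2A and MT1X are shown because the genes moved together. Capitals mark the core of the metal response element, TGCACNC or TGCGCNC, on either strand.
MT2A, chr16:56608334-56608633, plus strand: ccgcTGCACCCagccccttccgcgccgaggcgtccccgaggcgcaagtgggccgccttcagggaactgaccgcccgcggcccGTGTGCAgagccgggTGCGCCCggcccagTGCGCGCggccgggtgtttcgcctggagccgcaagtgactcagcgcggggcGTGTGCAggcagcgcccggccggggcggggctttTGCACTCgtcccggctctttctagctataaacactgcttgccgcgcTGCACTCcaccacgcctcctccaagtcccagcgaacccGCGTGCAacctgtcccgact
MT1X, chr16:56682220-56682519, plus strand: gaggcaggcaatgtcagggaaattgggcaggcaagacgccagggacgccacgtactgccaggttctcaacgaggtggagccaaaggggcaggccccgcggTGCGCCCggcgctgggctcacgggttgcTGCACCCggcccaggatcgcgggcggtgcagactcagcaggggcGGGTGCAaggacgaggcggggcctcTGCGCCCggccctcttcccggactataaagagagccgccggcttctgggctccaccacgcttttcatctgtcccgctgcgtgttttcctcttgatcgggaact

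MT2A holds 8 matches and MT1X holds 4. The core is short and GC-rich, and 39.2% of compared promoters held at least 1, against 38.0% of those called higher and 38.7% of those called lower. At least 2 were held by 12.3% of compared promoters, 11.4% of those called higher and 13.4% of those called lower. The share holding 4 or more was not counted.

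Immediate early and AP-1 genes gave 2 higher and 4 lower of 25, with a median of -0.37. MYC was the largest increase, and MAFK, a small MAF protein, was at 4.57 and 11.4 FPKM (1.15). JUN was at 49.9 and 22.9 FPKM (-1.09), the phosphatase DUSP4 at 89.2 and 39.2 FPKM (-1.17), MAFF at 18.4 and 5.48 FPKM (-1.58) and the ETS factor ETV4 at 32.7 and 13.9 FPKM (-1.18). FOSL1, the most abundant Fos-family gene named here, was at 209 and 134 FPKM (-0.63). Of the 25 genes, 18 had a negative difference, against 7368 of 13788 over all genes.

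Ligands of the EGF receptor gave 2 higher of 6, AREG (amphiregulin, 3.47 and 13.7 FPKM, 1.72) and EREG, and the 3 receptors had no call. Among 21 targets of SRF and YAP, 4 were called higher and 1 lower. ANKRD1, a muscle-type ankyrin repeat protein, was at 56.2 and 240 FPKM (2.07), and tissue factor (F3), which starts blood clotting, at 87.4 and 347 FPKM (1.98). CYR61, a secreted matrix protein, was at 337 and 713 FPKM (1.08), while the smooth muscle actin ACTG2 was at 5.74 and 0.483 FPKM (-2.19). Wnt pathway genes gave 1 higher (ROR1, a receptor kinase) and 3 lower (FZD8, WNT7B and LEF1) of 25.

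Metabolic genes differed by group. Among 25 genes of cholesterol synthesis and uptake, 3 were called higher and 0 lower, with a median of 0.21. Among these, the synthesis enzymes HMGCS1 and SC5D were at 18.4 and 42.1 FPKM (1.15) and at 6.63 and 15.7 FPKM (1.13). Genes of the ATF4 and unfolded protein responses gave 0 higher and 2 lower of 33. These were PHGDH, the first enzyme of serine synthesis (44.4 and 15.5 FPKM, -1.46), and ASNS, asparagine synthetase (46.0 and 22.2 FPKM, -1.02). Genes of aryl hydrocarbon receptor signalling split 2 and 2 of 9: CYP1A1 (1.91 and 9.29 FPKM) and CYP1B1 (16.6 and 60.2 FPKM) were higher, and KYNU (4.98 and 0.961 FPKM) and ALDH3A1 (5.91 and 1.45 FPKM) lower.

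All 13 protein-coding genes of the mitochondrial genome had positive differences, with a median of 0.57 and 0 calls. MT-CYB, for cytochrome b, had the largest (0.85). The median was 0.37 with quantile normalization. The share of the FPKM sum from mitochondrial genes moved with it, and the part of that share in other differences was not tested. Cytosolic ribosomal protein genes had 0 higher and 1 lower of 81, with a median of -0.17. Proteasome subunit genes (37), mitochondrial ribosomal protein genes (77) and aminoacyl-tRNA synthetase genes (35) had no call in either direction.

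**Figure D4:**
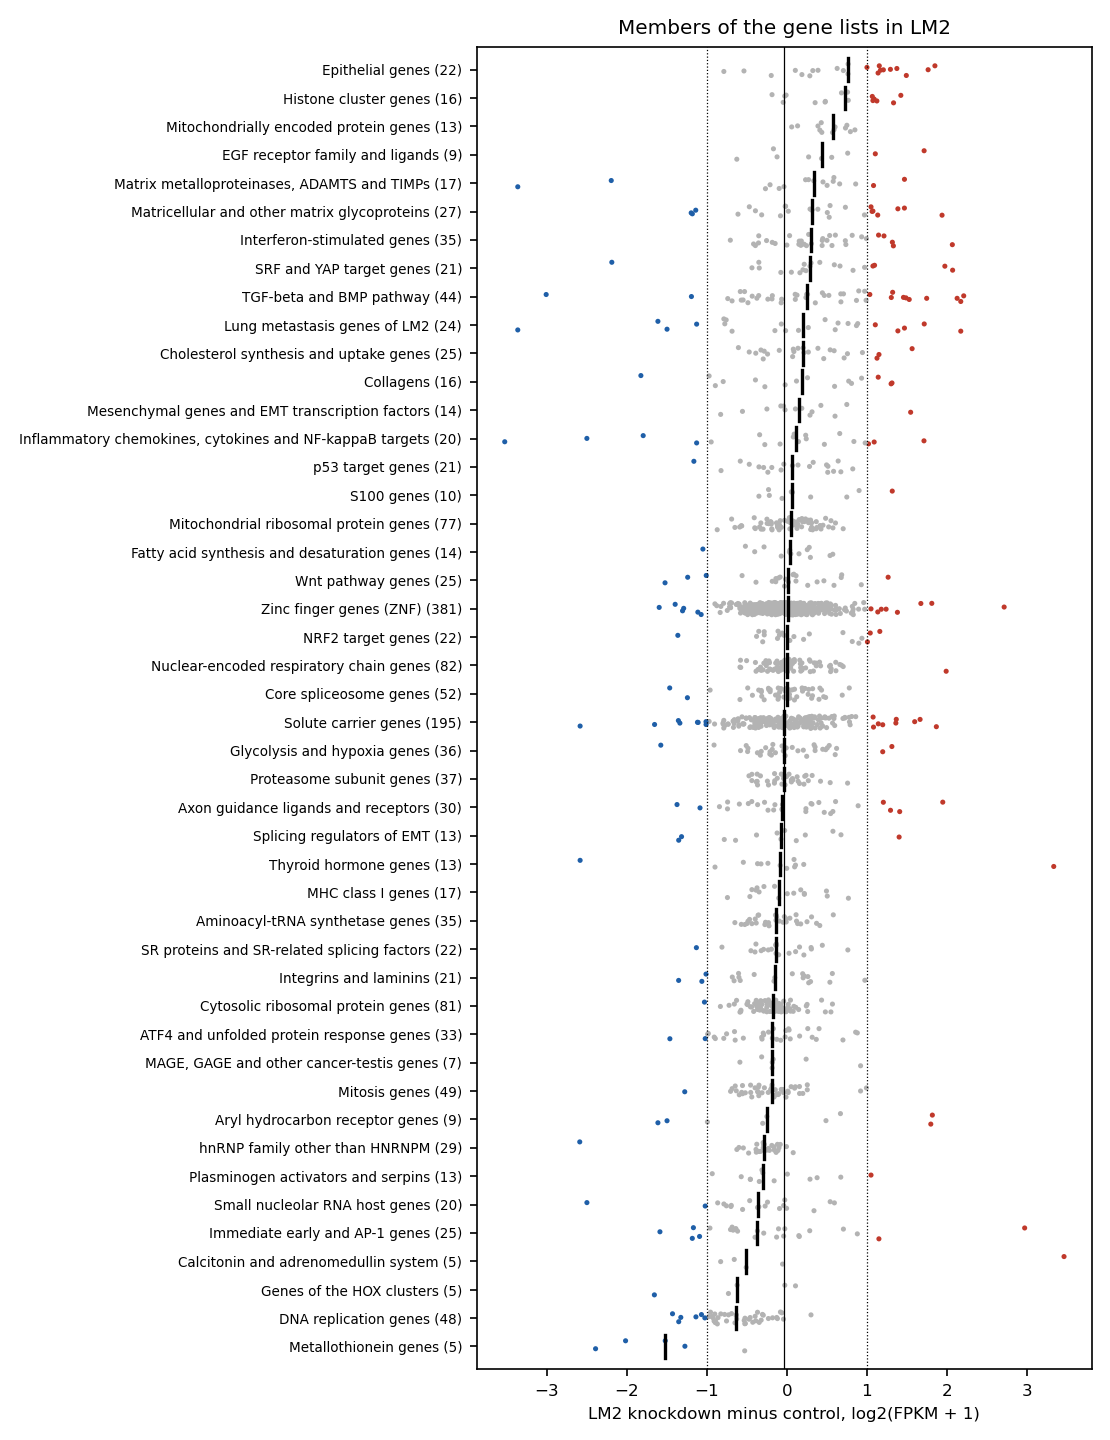
Differences on the log2(FPKM + 1) scale, LM2 knockdown minus control, of the members of each gene list with at least 5 genes compared, 1 point per gene and the number of genes in brackets. Thick bars are list medians, the thin line is the median over all genes (-0.04) and the dotted lines mark a 2-fold difference. Epithelial genes have the highest median (0.77) and metallothioneins the lowest (-1.52).

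The genes called in LM2 were then read in the BM1 pair. Over the same 13788 genes, 9.82% were at least 2-fold higher and 5.94% at least 2-fold lower in BM1. Of the 531 genes called higher in LM2, 263 (49.5%) were at least 2-fold higher in BM1, 11 were at least 2-fold lower and 151 lay within 1.5-fold. Of the 591 called lower in LM2, 270 (45.7%) were at least 2-fold lower in BM1, 7 were at least 2-fold higher and 173 lay within 1.5-fold. Median BM1 differences were 0.99 and -0.94 in the 2 groups. Both pairs used an shRNA against the same gene, so effects of the shRNA and of hnRNPM loss cannot be told apart.

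Of the 30 leading genes, all but TUBB2B and HNRNPH2 had the same sign in both lines. CALCR was at 0.0433 and 7.51 FPKM in the BM1 control and knockdown libraries, MYC at 2.60 and 22.2 FPKM, HMGA1 at 616 and 68.9 FPKM and SLCO4A1 at 49.6 and 3.28 FPKM. Others stood apart. CSF3 was at 0.162 and 0.105 FPKM in BM1, so this gene was nearly silent in both BM1 libraries. TP53INP2 was at 14.7 and 17.4 FPKM in BM1, where the control was already near the LM2 knockdown level, and TUBB2B was at 12.7 and 12.6 FPKM. SCHIP1 was below 1 FPKM in both BM1 libraries, while IQCJ-SCHIP1, which contains it on the same strand, was at 9.04 and 41.8 FPKM. How fragments were divided between these 2 entries is uncertain in BM1 as in LM2. IL1B was at 2.27 and 1.97 FPKM in BM1, and the acidic, collagen-binding SPARC at 2.13 and 1.31 FPKM. A difference between the lines cannot be tested with 1 library per arm in each.

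**Figure D5:**
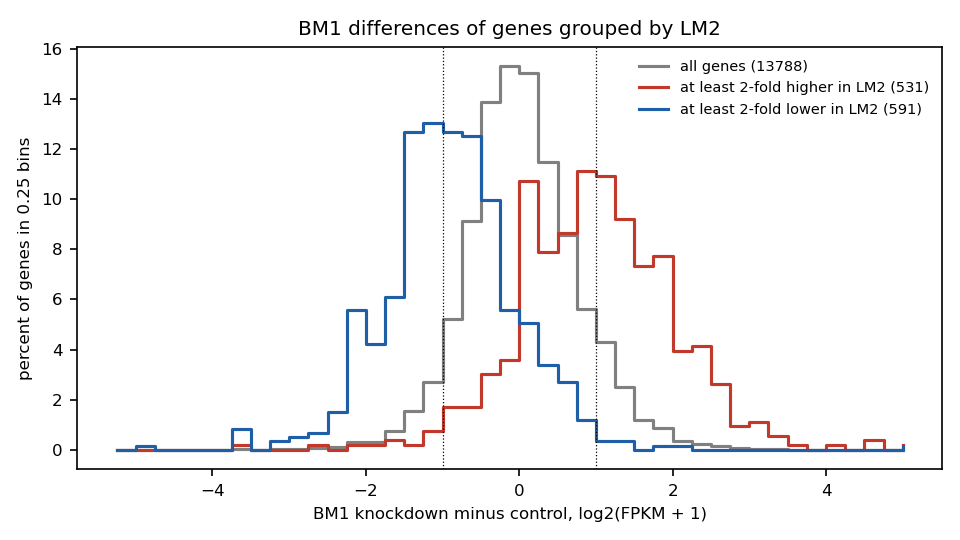
Distribution of the BM1 difference (knockdown minus control, log2(FPKM + 1)) in bins of 0.25, as percent of the genes in each group, for all 13788 genes and for those called higher (531) or lower (591) in LM2. Dotted lines mark a 2-fold difference. The group called higher in LM2 has a median of 0.99 in BM1 and the group called lower has -0.94.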

How the data were processed

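The authors deposited 1 table of FPKM values with 1 column per library. STAR 2.5.3a, Cuffdiff 2.2.1 and GRCh37 are named in the submitters' processing notes, without their roles or the annotation release. Of 20369 entries, 40 with 3 repeated gene IDs were left out. Differences are knockdown minus control of log2(FPKM + 1), with a pseudocount of 1, for genes with a mean of at least 1 FPKM over the LM2 pair (Python 3.11.15, pandas 2.3.3, numpy 2.4.6). With 1 library per arm there was no test. Gene types, lengths and GC content came from GENCODE 29 by gene ID (19671 matched), and promoters from RefSeq. Depth was read from whole steps in low values: 36.5% of control and 43.4% of knockdown products of FPKM and length lay on a step, against 3.22% and 2.62% for other steps. That a step is 1 fragment is inferred, most values did not come out whole, and no count test was run. On that reading 1 fragment on a 2 kb gene is 0.0121 FPKM in the control and 0.0184 in the knockdown library.

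Named genes were HNRNPM, DIO2, CALCR and SPARC, the 15 protein-coding genes with the largest difference in each direction, the 4 largest per list and all members of a system described. Further members were named after their values were seen. There were 52 lists, written from general knowledge. Members and lists were chosen with earlier results of these data known. Alternatives changed the pseudocount, the minimum, the scaling, the fold rule and the genes included. Removal of the GC trend and of same-strand overlaps was chosen after seeing the data. Values of some list members are not reported here.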

Additional observations from a re-analysis of the deposited data

Results flagged for a closer look

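A few results had opposite signs in the LM2 and BM1 pairs. Each rests on 1 library per arm and line, and the difference between the lines was not tested. SPARC had a difference of 1.39 in LM2 and -0.44 in BM1, and TUBB2B 2.83 in LM2 and -0.0152 in BM1 (12.7 and 12.6 FPKM). HNRNPH2 had -2.59 in LM2 and 5.08 in BM1 (0.505 and 49.9 FPKM), and its same-strand partner RPL36A-HNRNPH2 went from 17.2 to 4.11 FPKM in BM1. The median of SR protein genes was -0.13 in LM2 and 0.13 in BM1. Cholesterol genes had medians of 0.21 in LM2 and -0.18 in BM1, and aryl hydrocarbon receptor genes -0.25 in LM2 and 0.59 in BM1. With a minimum of 5 FPKM the LM2 median of the latter was 0.49, the same sign as in BM1. KYNU, a kynureninase, was lower in LM2 and at 0.769 and 7.32 FPKM in BM1.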

How the results depend on the processing

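With 1 library per arm no library can be left out. No paired analysis was possible because the labels give no replicate numbers and each arm has 1 library. Of the counts, 531 higher and 591 lower became 1479 and 1914 with a 1.5-fold rule and 62 and 56 with a 4-fold rule. A pseudocount of 0.1 gave 1010 lower, and a minimum of 5 FPKM, with fewer genes compared, gave 361 lower. The higher genes were in the majority with size factors (573 against 523), quantile normalization (572 and 520), equal sums without mitochondrial genes (573 and 526) and the GC trend removed (534 and 515). The same held with the minimum of 5 FPKM (372 and 361) and the 4-fold rule (62 and 56). HNRNPM stayed between -2.69 and -2.55. The share of LM2 calls shared with BM1 ran from 35.5% to 56.9% for higher and from 37.5% to 53.5% for lower genes. Both were lowest with the 4-fold rule, where the shares over all genes were 0.914% and 0.602%. With the 1.5-fold rule those shares were 20.6% and 16.4%. Of 409 list medians over the alternatives, 2 moved by at least 1.5-fold: aryl hydrocarbon receptor genes to 0.49 with the minimum of 5 FPKM and histone cluster genes to 0.09 without a minimum. Signs near 0 turned under some scalings for EMT splicing regulators, integrins with laminins, glycolysis, NRF2 targets, axon guidance, respiratory chain, proteasome, core spliceosome, zinc finger and solute carrier genes. The differences of the 30 leading genes kept their direction, with a smallest size of 2.25.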

Other observations

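Axon guidance genes, which steer cell contact and migration, gave 4 higher and 2 lower of 30 in LM2. SEMA3B, a secreted semaphorin, was at 2.89 and 14.0 FPKM (1.95), SEMA3C at 10.9 and 30.7 FPKM (1.41) and the semaphorin receptor PLXND1 at 10.3 and 26.9 FPKM (1.30). The ligand EFNB2 (-1.08) and the receptor ROBO3 (-1.37) were called lower, and the list median of -0.06 turned to 0.07 with the GC trend removed. Small nucleolar RNA host genes gave 0 higher and 2 lower of 20, with a median of -0.36. Of these 20, 17 were negative, against 7368 of 13788 over all genes. SNHG25 was at 9.39 and 0.841 FPKM (-2.50) and overlaps SNORD104 on the same strand.

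S100A10, the partner of annexin A2, was at 359 and 896 FPKM (1.32), the 1 call among 10 S100 genes. HOXB9, a homeobox transcription factor, was at 4.29 and 0.682 FPKM (-1.65), the 1 call among 5 HOX genes. Solute carriers gave 9 higher and 8 lower of 195, close to the shares over all genes (3.85% and 4.29%). The largest differences after SLCO4A1 were in the exchanger SLC9B1 (0.0406 and 2.80 FPKM), the glutamate transporter SLC1A3 (3.38 and 12.9 FPKM) and the amino acid transporter SLC43A1 (6.25 and 1.31 FPKM). SLC9B1 reached the minimum only through the knockdown library. Zinc finger genes gave 8 higher and 6 lower of 381, a share below that over all genes (3.85% and 4.29%).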
